A study of Homo sapiens with 12 samples.

Results

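The genes described are 42 genes of the unfolded protein response and of protein folding in the endoplasmic reticulum (ER), measured in hepatocellular carcinoma (HCC) cells with and without knockdown of GALNT1. They were taken as a list of names that was chosen with earlier results of these data known. Every one was found on the array through the RefSeq transcript that its probe was designed for. The list covers 42 of the 20503 genes that could be named on the array and 53 of its 50599 probes. By role it holds 17 chaperones and folding enzymes, 7 factors of ER-associated degradation (ERAD), 7 stress sensors and transcription factors, 9 targets of the integrated stress response and 2 factors of secretory transport. Each gene was read from its brightest probe, and levels of different probes were not set against each other.

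Proteins that enter the secretory pathway fold in the ER with the help of chaperones such as BiP (HSPA5) and of enzymes that form disulfide bonds. When unfolded proteins accumulate, the sensors IRE1 (ERN1), PERK (EIF2AK3) and ATF6 start the unfolded protein response: IRE1 splices the XBP1 mRNA, ATF6 is cleaved to a transcription factor, and PERK phosphorylates eIF2alpha, which slows translation and favours that of ATF4. The last branch is shared with amino acid shortage and other stresses, and is then called the integrated stress response. Hepatocytes secrete most plasma proteins and carry an extensive ER. The arrays measured transcript levels only, so splicing of XBP1, cleavage of ATF6 and translation of ATF4 were not measured.

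RNA came from HA22T and PLC5, established human HCC cell lines, 48 h after transfection with 10 nM siRNA. The siControl cells received a non-targeting siRNA, and the siGALNT1 cells a SMART pool against GALNT1, the Golgi enzyme that starts mucin-type O-glycosylation. The pool mixes several sequences, so the effect of one sequence cannot be told apart from that of another, and each line stands for itself only. Each of the 4 groups had 3 arrays, 12 in all, and no source used here ties the arrays of a group to separate cultures, so the p-values measure only the spread between these arrays. Both siRNAs were compared within each line, and the lines were compared within each siRNA.

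On each array 36679 to 48873 of 58717 spots were well above background, 489 to 3633 were flagged as non-uniform and none was saturated. The labelled origin was checked with 12 hepatocyte genes. On PLC5 siControl arrays all 12 were well above background on all 3 arrays, against 6 of 12 on HA22T siControl arrays, where 1 was above background on none. All 12 read lower in HA22T with either siRNA, and 10 passed the test in each. The log2 of their summed level lay between 2.74 and 3.07 on HA22T siControl arrays and between 6.73 and 7.44 on PLC5 siControl arrays. Markers of other cell types also differed. With siControl the log2 of the summed level of the 4 fibroblast markers with a value lay between 0.01 and 0.46 in HA22T and between -3.42 and -2.74 in PLC5, and that of 2 endothelial markers between -2.25 and -1.88 in HA22T and between 2.09 and 2.48 in PLC5. The summed level of the 3 leukocyte markers, mostly that of PTPRC, overlapped between the lines with siControl (4.59 to 5.51 in HA22T and 4.83 to 5.51 in PLC5). With siGALNT1 it did not (5.35 to 6.04 in HA22T and 4.26 to 5.23 in PLC5). All 3 were above background on every array. The fibroblast and endothelial sums differed mainly through LUM and PECAM1. With siControl DCN differed by -0.36 and CDH5 by -0.32, neither called, and COL1A2 and PDGFRB were too dim to be tested between the lines. LUM and CD14 read higher, and PECAM1 lower, on every HA22T array than on every PLC5 array. These marker levels move with every line difference given here, and their part in them was not tested. The slide also differs, where arrays with the same recorded scan date were taken to share a slide. All HA22T arrays and replicate 1 of both PLC5 groups formed slide 1 (8 arrays). PLC5 replicates 2 and 3 formed slide 2 (4 arrays).

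Values are log2 signals relative to the 75th percentile of the array, so that 0 is the signal of that percentile and a difference of 1 is a 2-fold difference. The target GALNT1 was first read on every array. Its brightest probe read 1.32, 0.75 and 0.85 with siControl and -3.15, -3.68 and -5.55 with siGALNT1 in HA22T. In PLC5 it read 0.87, 0.37 and 0.61 with siControl and -1.93, -3.47 and -3.92 with siGALNT1. All 6 siGALNT1 arrays lay far below all 6 siControl arrays, as the labels state. The difference was -5.10 ± 0.61 (standard error, SE) in HA22T (limma, adjusted p = 0.0708) and -3.72 ± 0.61 in PLC5 (adjusted p = 1.00). The other GALNT1 probe fell by 4.75 on the log2 scale in HA22T (adjusted p = 0.0305), the only probe of the array that passed the threshold of an adjusted p below 0.05 in a knockdown comparison, and it differed by -3.03 in PLC5 (adjusted p = 1.00). On the HA22T siGALNT1 arrays the brightest GALNT1 probe was well above background on 2 of 3 and the other on 1 of 3, so these HA22T differences rest on levels at the background.

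Known binding elements were looked for in the 250 bases before the annotated start of each gene, on both strands, in RefSeq sequence of GRCh38.p14. The elements were the ER stress response element, ERSE (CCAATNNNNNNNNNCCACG, bound by ATF6 together with NF-Y), ERSE-II (ATTGGNCCACG), the unfolded protein response element, UPRE (TGACGTGG, bound by XBP1 and ATF6), and the C/EBP-ATF response element, CARE (TGATGNAA, bound by ATF4). Of the 42 genes, 38 had such a sequence, and PDIA3, DERL1, DERL3 and SEC24D had none in the table. ERSE was found in 8 genes (HSPA5, HSP90B1, CALR, CANX, PDIA6, CRELD2, ERO1B and XBP1), against 0.0916% of the 27305 genes with a sequence. ERSE-II was found in HYOU1, SDF2L1 and HERPUD1, against 0.0659% of genes. UPRE was found in HYOU1 (0.780% of genes), where it overlaps ERSE-II, and CARE in HERPUD1, CHAC1 and ASNS (3.89% of genes). Together 11 genes held ERSE or ERSE-II, and 9 of these were among the 16 chaperones and folding enzymes with a sequence.

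Upstream sequences of 7 genes are shown, read 5′ to 3′ on the strand of the gene, because they show each element in its setting and their genes are described below. Capitals mark the matches. The windows are chr9:125241344-125241593 (HSPA5, minus strand), chr12:103930160-103930409 (HSP90B1, plus), chr11:119057206-119057455 (HYOU1, minus), chr22:28800570-28800819 (XBP1, minus), chr16:56931892-56932141 (HERPUD1, plus), chr15:40953221-40953470 (CHAC1, plus) and chr7:97872409-97872658 (ASNS, minus).
HSPA5: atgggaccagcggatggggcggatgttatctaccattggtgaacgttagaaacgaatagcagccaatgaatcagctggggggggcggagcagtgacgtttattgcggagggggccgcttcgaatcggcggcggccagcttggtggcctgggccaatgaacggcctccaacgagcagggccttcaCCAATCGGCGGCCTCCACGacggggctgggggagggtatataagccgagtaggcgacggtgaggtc
HSP90B1: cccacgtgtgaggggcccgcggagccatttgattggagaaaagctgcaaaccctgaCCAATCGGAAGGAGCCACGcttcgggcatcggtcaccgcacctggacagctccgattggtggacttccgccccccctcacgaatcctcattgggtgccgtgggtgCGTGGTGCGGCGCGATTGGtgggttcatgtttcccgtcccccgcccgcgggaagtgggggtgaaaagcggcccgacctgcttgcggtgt
HYOU1: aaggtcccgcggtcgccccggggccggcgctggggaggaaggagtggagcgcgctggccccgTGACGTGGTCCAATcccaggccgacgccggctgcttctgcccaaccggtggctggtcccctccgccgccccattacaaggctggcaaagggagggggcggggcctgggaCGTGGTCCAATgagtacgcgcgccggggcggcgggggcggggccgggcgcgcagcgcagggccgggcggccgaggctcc
XBP1: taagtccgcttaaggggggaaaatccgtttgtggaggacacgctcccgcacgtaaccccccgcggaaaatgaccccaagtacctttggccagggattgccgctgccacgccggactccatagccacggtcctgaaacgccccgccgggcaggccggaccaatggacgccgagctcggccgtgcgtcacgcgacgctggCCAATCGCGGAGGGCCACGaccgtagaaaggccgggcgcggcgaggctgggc
HERPUD1: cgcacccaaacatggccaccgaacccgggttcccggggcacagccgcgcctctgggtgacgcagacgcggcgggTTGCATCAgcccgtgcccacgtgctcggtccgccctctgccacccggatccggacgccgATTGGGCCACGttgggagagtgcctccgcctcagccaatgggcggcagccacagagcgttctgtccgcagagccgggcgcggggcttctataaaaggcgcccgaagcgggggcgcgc
CHAC1: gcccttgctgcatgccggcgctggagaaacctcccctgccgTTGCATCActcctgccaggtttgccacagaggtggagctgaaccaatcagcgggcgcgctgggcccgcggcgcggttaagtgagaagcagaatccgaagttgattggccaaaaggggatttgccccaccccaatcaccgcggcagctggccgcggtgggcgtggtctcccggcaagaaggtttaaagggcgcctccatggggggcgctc
ASNS: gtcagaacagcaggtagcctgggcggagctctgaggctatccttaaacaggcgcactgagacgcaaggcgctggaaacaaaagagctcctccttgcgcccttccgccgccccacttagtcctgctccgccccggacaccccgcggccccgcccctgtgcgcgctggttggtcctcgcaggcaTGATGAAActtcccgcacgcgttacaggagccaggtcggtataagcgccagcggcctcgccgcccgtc
HSPA5 and XBP1 each held a single ERSE close to the start, at -66 to -48 and -52 to -34. HSP90B1 held 2, in opposite orientations. HYOU1 held 2 copies of ERSE-II on the opposite strand, and the farther one shares bases with UPRE. HERPUD1 held ERSE-II and CARE, and the only capitals in CHAC1 and ASNS are CARE. A match is a description of the letters, and binding was not measured.

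**Figure D1:**
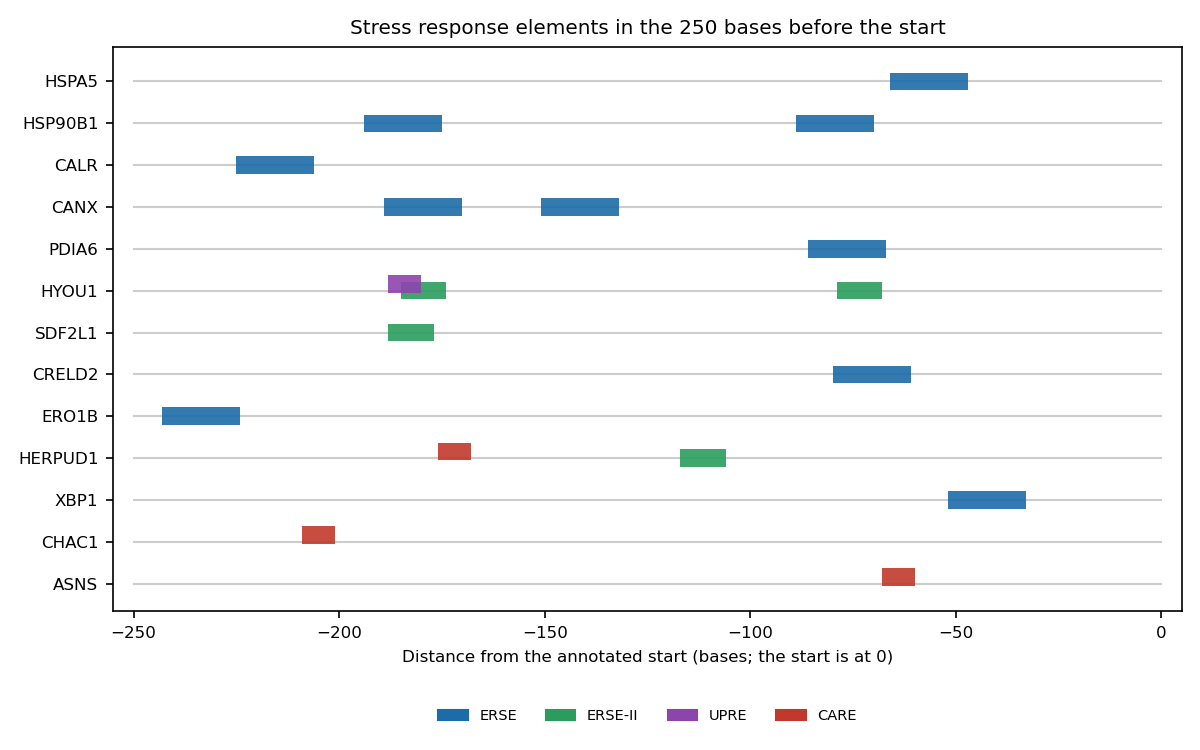
Matches to ERSE, ERSE-II, UPRE and CARE (colours) in the 250 bases before the annotated start of the genes that held any; the x axis is the distance from the start in bases, and each bar is 1 match. The ERSE of XBP1 lies nearest to the start, at -52 to -34, and the single match of ERO1B farthest, at -243 to -225.

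Knockdown of GALNT1 was followed by no change that passed the test in any of the 42 genes. In HA22T, 0 of 42 had an adjusted p below 0.05, where 0.00275% of the 36327 probes tested did. In PLC5 it was 0 of 42, where 0% of 38070 did. The difference of the siRNA effect between the lines was called for 0 of 42 and for 0% of 39100 probes. At an unadjusted p below 0.05 the counts were 1 of 42 in HA22T (2.99% of all probes), 0 of 42 in PLC5 (1.33%) and 0 of 42 for the difference between the lines (2.43%). In all 14 other settings of the knockdown comparisons (12 for the difference between the lines) and with each of the 12 arrays left out the count of called genes stayed at 0. At most 3 probes of the whole array were called on knockdown in any of these settings, so the repeated 0 adds little. The test also did not call GALNT1 itself in PLC5 (-3.72), so 0 calls does not show that these genes were unchanged.

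On the brightest probes the sizes were small in both lines. In HA22T the differences ran from -0.65 to 0.32 on the log2 scale, with a median of -0.05 over the 42 genes and of -0.06 over all probes, and 19 of 42 lay above 0, where 42.5% of all probes and 36.5% of named genes did. In PLC5 they ran from -0.24 to 0.39 with a median of 0.10, against 0.01 over all probes. In that line 34 of 42 lay above 0, among them 17 of 17 chaperones and folding enzymes, while 52.2% of all probes and 57.5% of named genes did. The 34 became 22 to 37 and the 17 became 12 to 17 under the other settings. In quantile-normalized values 16 of 17 lay above 0, and without PLC5 siGALNT1 replicate 1 or 2 it was 12 of 17. Of the further genes of the pathway described below, 80 of 106 also lay above 0 in PLC5. By list this ran from 10 of 19 other sensors and factors to 17 of 19 other ERAD factors. The genes share the same arrays, so these counts say only where the values lie.

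The 95% intervals show which differences the spread between these arrays allows. They were computed gene by gene, without adjustment for the 42 genes and without pairing of arrays. They do not cover a spread between cultures. In HA22T, 33 of 42 intervals lay within 1 log2 unit of 0, and in PLC5 32 of 42 did. For the brightest probe of these genes a change beyond 2-fold lies outside the interval. Other probes are not bounded by it: the dimmer CHAC1 probe differed by 1.83 on knockdown in HA22T, without passing the test. The widest bounds were -1.45 and 1.33 in HA22T and -1.05 and 1.43 in PLC5. Intervals of the difference between the lines were wider, and 9 of 42 lay within 1 log2 unit.

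**Figure D2:**
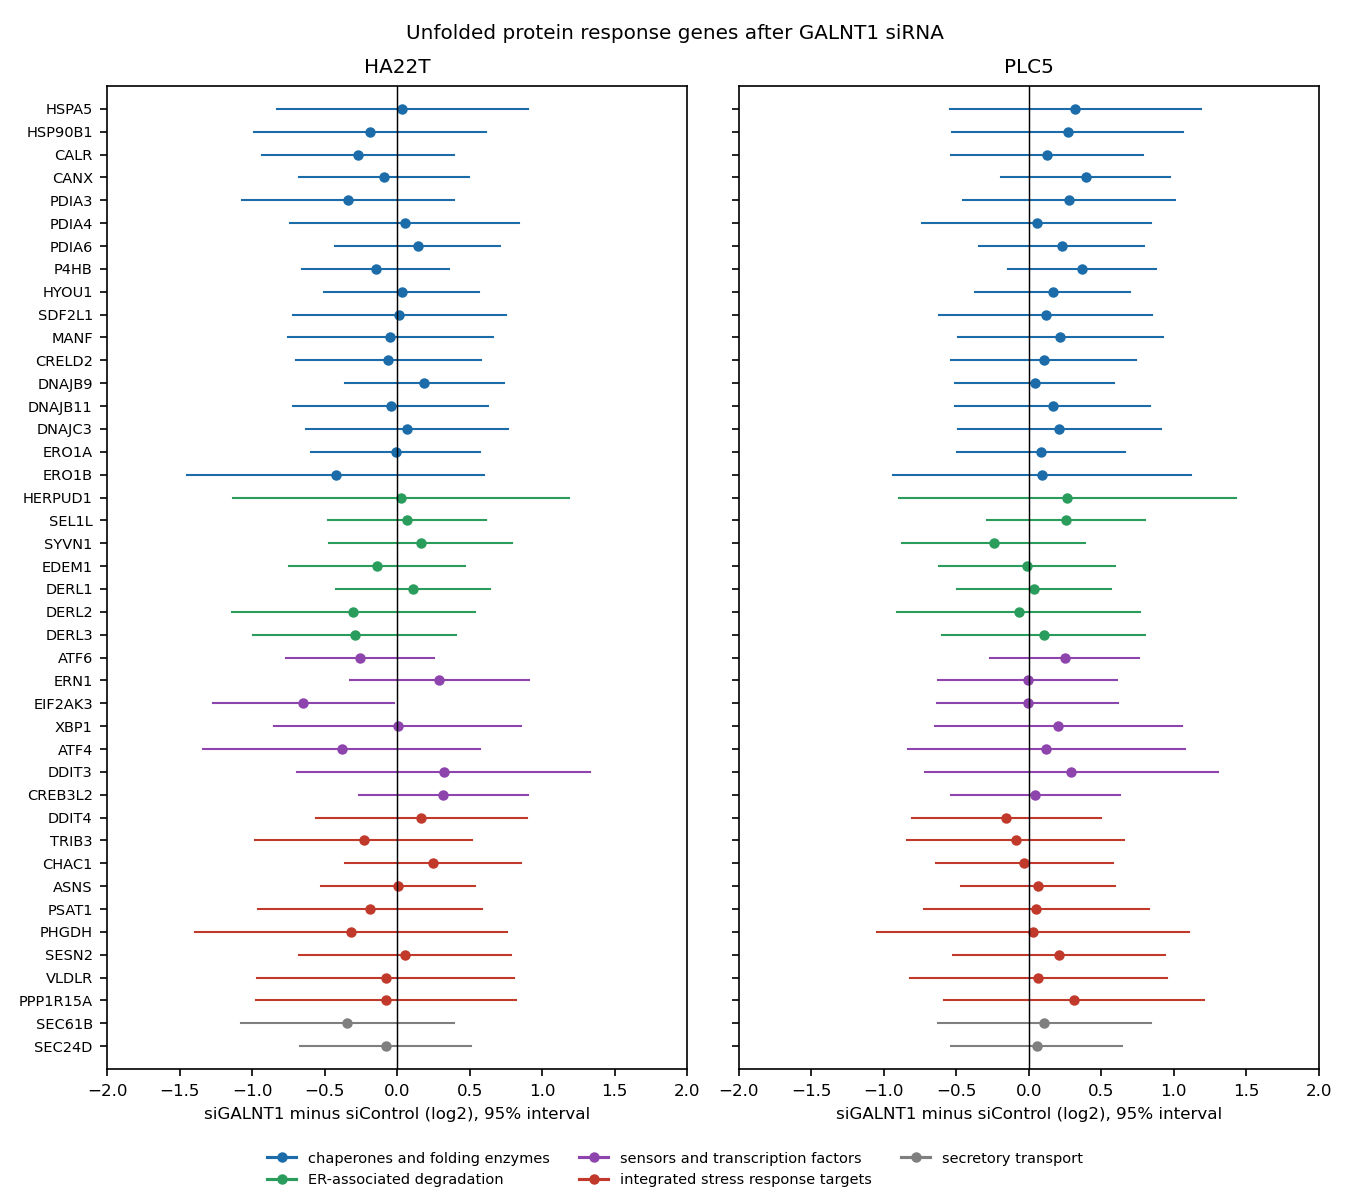
Difference between siGALNT1 and siControl arrays (log2, x axis) for each of the 42 genes, with HA22T and PLC5 side by side; points are the fitted differences and bars their 95% intervals. Each gene is drawn from its brightest probe. EIF2AK3 in HA22T (-0.65, interval -1.27 to -0.03) is the only gene whose interval does not reach 0.

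Between the cell lines many of the genes differed. With siControl, 15 of 42 genes had an adjusted p below 0.05, 13 lower and 2 higher in HA22T, where 22.0% of the 38011 probes were called, 11.0% lower and 11.0% higher. Read from the brightest probe of each of 17417 named genes, as the 42 genes are, 26.6% were called, 12.4% lower and 14.2% higher. With siGALNT1, 15 of 42 were called, all lower in HA22T, where 22.9% of 36741 probes were called, 13.1% lower and 9.79% higher, and 26.6% of named genes were called, 15.0% lower and 11.6% higher. The share of calls that were higher in HA22T over all probes was 42.8% with siGALNT1 and became 54.8% after quantile normalization. The median difference of the 42 genes was -0.54 with siControl and -0.70 with siGALNT1, against 0.04 and 0.10 over all probes.

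The siGALNT1 arrays are separate hybridisations, and give the line difference a further time. The comparisons are not independent: they share an estimate of the spread, and same-numbered HA22T arrays deviated together across the siRNAs. Of the 42 genes, 12 were called in both, all lower in HA22T, where 17.4% of probes were called in both. That share is over all probes and was not computed for the brightest probes of named genes. The 12 genes were HYOU1, DNAJB9, DNAJC3, ERO1A, SYVN1, EIF2AK3, XBP1, ATF4, CHAC1, ASNS, PSAT1 and SESN2. MANF, ATF6 and DDIT4 were called with siControl only, and CANX, P4HB and ERO1B with siGALNT1 only. For none of the 42 did the line difference itself differ between the siRNAs by the test (adjusted p at least 0.988). Among genes with a value on all 6 arrays compared, the lines did not overlap for 19 lower and 4 higher in HA22T with siControl (17.6% and 20.9% of all probes), and for 17 lower and 3 higher with siGALNT1 (18.5% and 16.9%). In all, 40 of 42 genes had a difference of the same sign with both siRNAs, and 24 were called with neither.

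By role, the calls with siControl were 5 of 17 chaperones and folding enzymes (4 lower, 1 higher), 1 of 7 ERAD factors (lower), 4 of 7 sensors and transcription factors (3 lower, 1 higher), 5 of 9 integrated stress response targets (all lower) and 0 of 2 transport factors, where 26.6% of named genes were called (12.4% lower). With siGALNT1 they were 7, 1, 3, 4 and 0 in the same order, all lower (26.6% of named genes called, 15.0% lower). The counts for chaperones with siControl and for ERAD factors lie near or under that share. The integrated stress response targets had the lowest median, -1.27 with siControl and -1.05 with siGALNT1, and 8 of 9 lay below 0 in both. DDIT3, also a target of ATF4, was counted with the sensors and is not among these 9. DDIT3 differed by -0.09 and -0.06. Across the other settings 7 or 8 of these 9 lay below 0 with siControl.

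**Figure D3:**
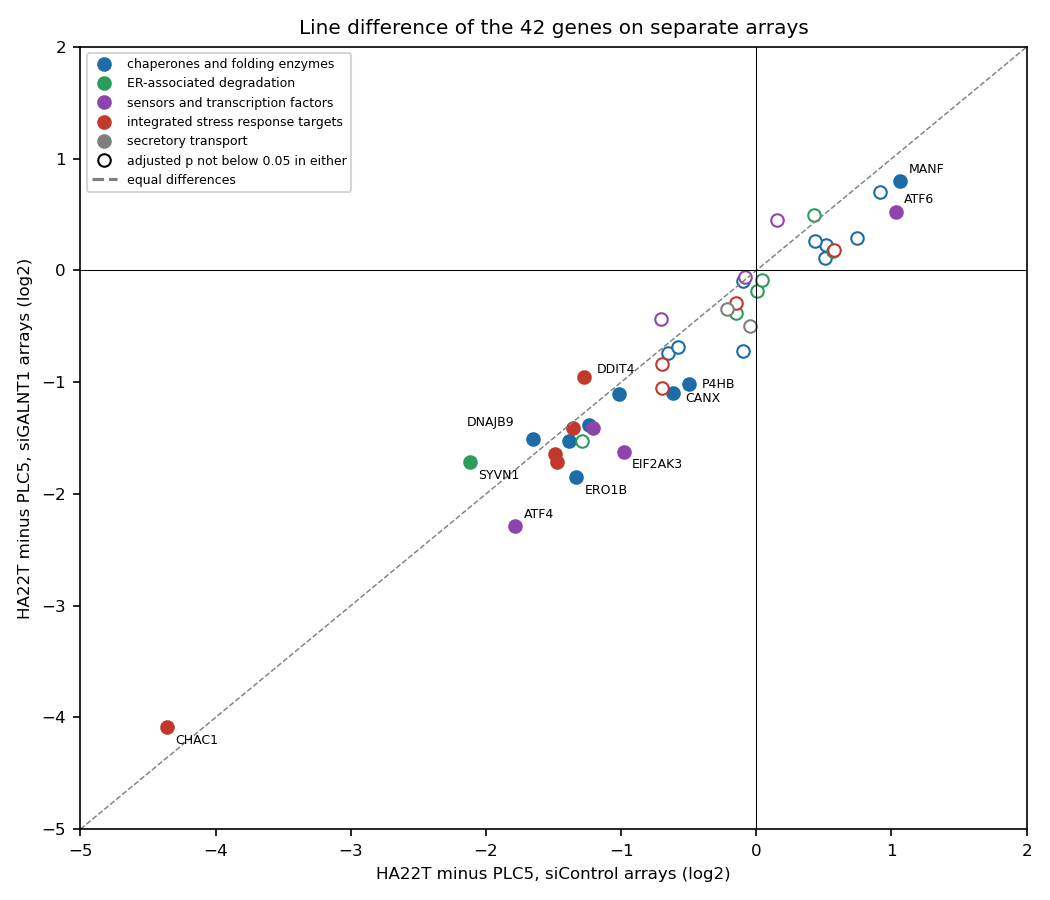
Difference between HA22T and PLC5 (log2) on siControl arrays (x axis) and on siGALNT1 arrays (y axis), 1 point for each of the 42 genes, coloured by role; filled points had an adjusted p below 0.05 in at least 1 of them, and the dashed line marks equal differences. CHAC1 stands alone at -4.36 and -4.09, and MANF and ATF6 are the filled points above 0; some names are left out where points crowd.

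Within slide 1 the HA22T arrays can be set against 1 PLC5 array of each siRNA. All 15 called genes kept their direction with siControl, and all 15 with siGALNT1. The lines did not overlap for any of these genes in the comparison that called them. Their direction could therefore not change, and its keeping is no check of the slide. With the slide as a block the siControl calls became 12 of 42: EIF2AK3, ERO1A, MANF and PSAT1 were no longer called and SDF2L1 was. With siGALNT1 the block left 15 calls, without ERO1B and with SDF2L1. The values or adjusted p of these genes with the slide as a block are given with each gene.

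Among the chaperones, BiP, GRP94 and calreticulin did not differ between the lines by the test. HSPA5, the Hsp70 of the ER that also binds the sensors, read -0.41, 0.42 and 0.08 with siControl and -0.48, 0.62 and 0.06 with siGALNT1 in HA22T, and -0.94, -0.22 and -0.29 with siControl and -0.71, 0.48 and -0.25 with siGALNT1 in PLC5. The groups overlapped throughout, and the line difference was 0.51 ± 0.40 with siControl (adjusted p = 0.410) and 0.23 ± 0.40 with siGALNT1 (0.722). On knockdown HSPA5 differed by 0.03 in HA22T (95% interval -0.83 to 0.90) and 0.32 in PLC5 (-0.55 to 1.19). HSP90B1 encodes GRP94, the Hsp90 of the ER. It read 6.39, 6.44 and 6.07 with siControl and 5.58, 6.69 and 6.06 with siGALNT1 in HA22T, and 6.07, 5.12 and 5.47 with siControl and 6.24, 5.90 and 5.32 with siGALNT1 in PLC5. The HA22T siControl arrays lay above the PLC5 siControl arrays by a narrow margin (0.75 ± 0.36, adjusted p = 0.181), and the siGALNT1 groups overlapped (0.29). Within slide 1 the difference was 0.23 with siControl and -0.13 with siGALNT1. CALR differed by 0.51 with siControl (adjusted p = 0.279) and CRELD2 by 0.43 (0.344).

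HYOU1, the large nucleotide exchange factor of BiP, was among the most stable differences. It read 2.46, 1.99 and 1.99 with siControl and 2.22, 2.14 and 2.17 with siGALNT1 in HA22T, and 3.77, 3.44 and 3.39 with siControl and 3.84, 3.86 and 3.40 with siGALNT1 in PLC5. Every HA22T array lay below every PLC5 array, and HYOU1 was 2.62-fold lower with siControl (-1.39 ± 0.24, adjusted p = 0.00161) and 2.87-fold lower with siGALNT1 (-1.52 ± 0.24, 0.000891). The co-chaperone DNAJB9 (ERdj4) read -2.55, -2.47 and -2.28 with siControl and -2.43, -2.16 and -2.15 with siGALNT1 in HA22T, and -1.16, -0.60 and -0.58 with siControl and -1.01, -0.53 and -0.69 with siGALNT1 in PLC5. The lines again did not overlap, with differences of -1.65 ± 0.25 (adjusted p = 0.000572) and -1.51 ± 0.25 (0.00114). Within slide 1 DNAJB9 differed by -1.27 and -1.24. HYOU1, DNAJB9, CHAC1 and ASNS were the 4 genes called with both siRNAs in each of the 26 other settings.

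DNAJC3 (p58IPK), a co-chaperone that also inhibits eIF2alpha kinases, read 2.51, 1.49 and 1.53 with siControl and 2.12, 1.82 and 1.79 with siGALNT1 in HA22T, and 3.18, 2.89 and 3.17 with siControl and 3.58, 3.42 and 2.87 with siGALNT1 in PLC5. HA22T siControl replicate 1 was the nearest to PLC5, but the lines did not overlap. The difference was -1.23 ± 0.32 with siControl (adjusted p = 0.0161) and -1.38 ± 0.32 with siGALNT1 (0.00892). Without HA22T siControl replicate 2, HA22T siControl replicate 3 or PLC5 siControl replicate 3 the siControl call was lost (adjusted p 0.0576 to 0.0671). Under the methods' t-test it was lost as well (adjusted p = 0.0966).

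The oxidases ERO1A and ERO1B recharge the disulfide isomerases. ERO1A read 0.39, 0.74 and 0.25 with siControl and 0.13, 0.81 and 0.39 with siGALNT1 in HA22T, and 1.44, 1.59 and 1.37 with siControl and 1.55, 1.83 and 1.28 with siGALNT1 in PLC5. All HA22T arrays lay below all PLC5 arrays (-1.01 ± 0.26, adjusted p = 0.0171 with siControl; -1.11 ± 0.26, 0.0107 with siGALNT1). With siControl the call was lost without HA22T siControl replicate 1 or 3 or PLC5 siControl replicate 2 (adjusted p 0.0520 to 0.0694) and with the slide as a block (adjusted p = 0.0609). With siGALNT1 it was lost with the 2 groups alone (0.0641) and under the methods' t-test (0.0769). ERO1B was close to background in HA22T, where it was well above it on 1 of 3 siGALNT1 arrays. It read -4.64, -3.42 and -3.71 with siControl and -4.78, -3.99 and -4.28 with siGALNT1 in HA22T, and -3.40, -2.11 and -2.26 with siControl and -3.21, -1.86 and -2.43 with siGALNT1 in PLC5. PLC5 replicate 1, on slide 1, was the lowest PLC5 array with either siRNA. The difference was -1.85 ± 0.47 with siGALNT1 (adjusted p = 0.0147), -1.14 within slide 1 and -1.09 with the slide as a block (adjusted p = 0.101). It was also not called without HA22T siGALNT1 replicate 1 or PLC5 siGALNT1 replicate 2 (0.0508 and 0.0654), or under the methods' t-test (0.0859). With siControl ERO1B was not called (-1.33 ± 0.47, adjusted p = 0.0645), but was without PLC5 siControl replicate 1 (0.0256) and with the replicate number as a block (0.00208).

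Calnexin (CANX), the membrane-bound lectin chaperone of glycoproteins, was called with siGALNT1 only in its brightest probe. It read 5.09, 4.37 and 4.65 with siControl and 4.71, 4.52 and 4.60 with siGALNT1 in HA22T, and 5.53, 4.91 and 5.51 with siControl and 5.73, 5.82 and 5.58 with siGALNT1 in PLC5. The siControl groups overlapped (-0.62 ± 0.27, adjusted p = 0.130), and the siGALNT1 groups did not (-1.10 ± 0.27, 0.0115). The siGALNT1 arrays of PLC5 all lay above its siControl arrays, by 0.39 on average (adjusted p = 1.00), and 2.16% of all probes showed such a separation upwards. The other CANX probe was called with both siRNAs (-0.85, adjusted p = 0.0345, and -1.02, 0.0137), and quantile normalization and the mean over probes also called CANX with siControl (-0.85, 0.0406, and -0.73, 0.0259). P4HB, the protein disulfide isomerase PDI, read 4.38, 4.13 and 4.20 with siControl and 4.05, 4.14 and 4.07 with siGALNT1 in HA22T, and 4.73, 4.50 and 4.97 with siControl and 5.16, 5.32 and 4.83 with siGALNT1 in PLC5. Its lines did not overlap with either siRNA, and the difference was -0.50 ± 0.23 with siControl (adjusted p = 0.160) and -1.02 ± 0.23 with siGALNT1 (0.00840). The other P4HB probe was not called (-0.23, adjusted p = 0.505, and -0.42, 0.187), and the siGALNT1 call was lost after normexp background correction (-0.61, 0.186) and with the 2 groups alone (0.0568). P4HB had the lowest p of the 42 genes on knockdown in PLC5 (0.37, adjusted p = 1.00).

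PDIA3 (ERp57), the isomerase that works with calnexin and calreticulin, read 2.70, 2.64 and 2.94 with siControl and 1.95, 3.18 and 2.12 with siGALNT1 in HA22T, and 2.67, 2.99 and 2.92 with siControl and 2.99, 3.54 and 2.88 with siGALNT1 in PLC5. HA22T siGALNT1 replicate 2 was the highest HA22T array and the other siGALNT1 arrays were the lowest. PDIA3 differed by -0.10 between the lines with siControl and by -0.72 with siGALNT1 (adjusted p = 0.145), and without that replicate 2 by -1.10 (adjusted p = 0.0247). PDIA6, another isomerase, read 3.50, 3.45 and 3.66 with siControl and 3.32, 3.97 and 3.73 with siGALNT1 in HA22T, and 4.37, 4.05 and 4.14 with siControl and 4.61, 4.58 and 4.05 with siGALNT1 in PLC5. HA22T lay below PLC5 on every array, and the differences of -0.65 and -0.74 had adjusted p of 0.100 and 0.0616. Without PLC5 siGALNT1 replicate 3 the latter was -0.92 (0.0326), and quantile normalization called PDIA6 with both siRNAs (-0.80, 0.0391, and -0.97, 0.0161). PDIA4 differed by -0.10 with either siRNA.

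MANF, a secreted ER protein that stabilises BiP with its clients, was 1 of the 2 genes called higher in HA22T. It read 2.96, 2.98 and 2.94 with siControl and 2.20, 3.64 and 2.91 with siGALNT1 in HA22T, and 2.01, 1.82 and 1.87 with siControl and 2.29, 1.94 and 2.12 with siGALNT1 in PLC5. The siControl arrays of HA22T were tightly grouped and lay above PLC5, and the siGALNT1 arrays spread widely, with replicate 1 inside the range of PLC5. MANF was 2.09-fold higher with siControl (1.07 ± 0.32, adjusted p = 0.0346), and not called with siGALNT1 (0.0983). The siControl call was lost when any of the 6 siControl arrays was left out (adjusted p 0.0617 to 0.101) and with the slide as a block (0.151). With siGALNT1 it was called without HA22T siGALNT1 replicate 1 (1.16, adjusted p = 0.0141). DNAJB11 (ERdj3) lay 0.91 higher with siControl without passing the test (adjusted p = 0.0536), and passed it without PLC5 siControl replicate 1 or PLC5 siGALNT1 replicate 3 (0.0297 and 0.0473). DNAJB11 also passed in 5 other settings, among them the replicate number as a block (0.0307). SDF2L1, which works with ERdj3, differed by -0.58 and -0.68, neither called. Within slide 1 SDF2L1 differed by -1.19 and -1.10, and with the slide as a block it was called with both siRNAs (-1.09, adjusted p = 0.0362, and -1.20, 0.0229).

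**Figure D4:**
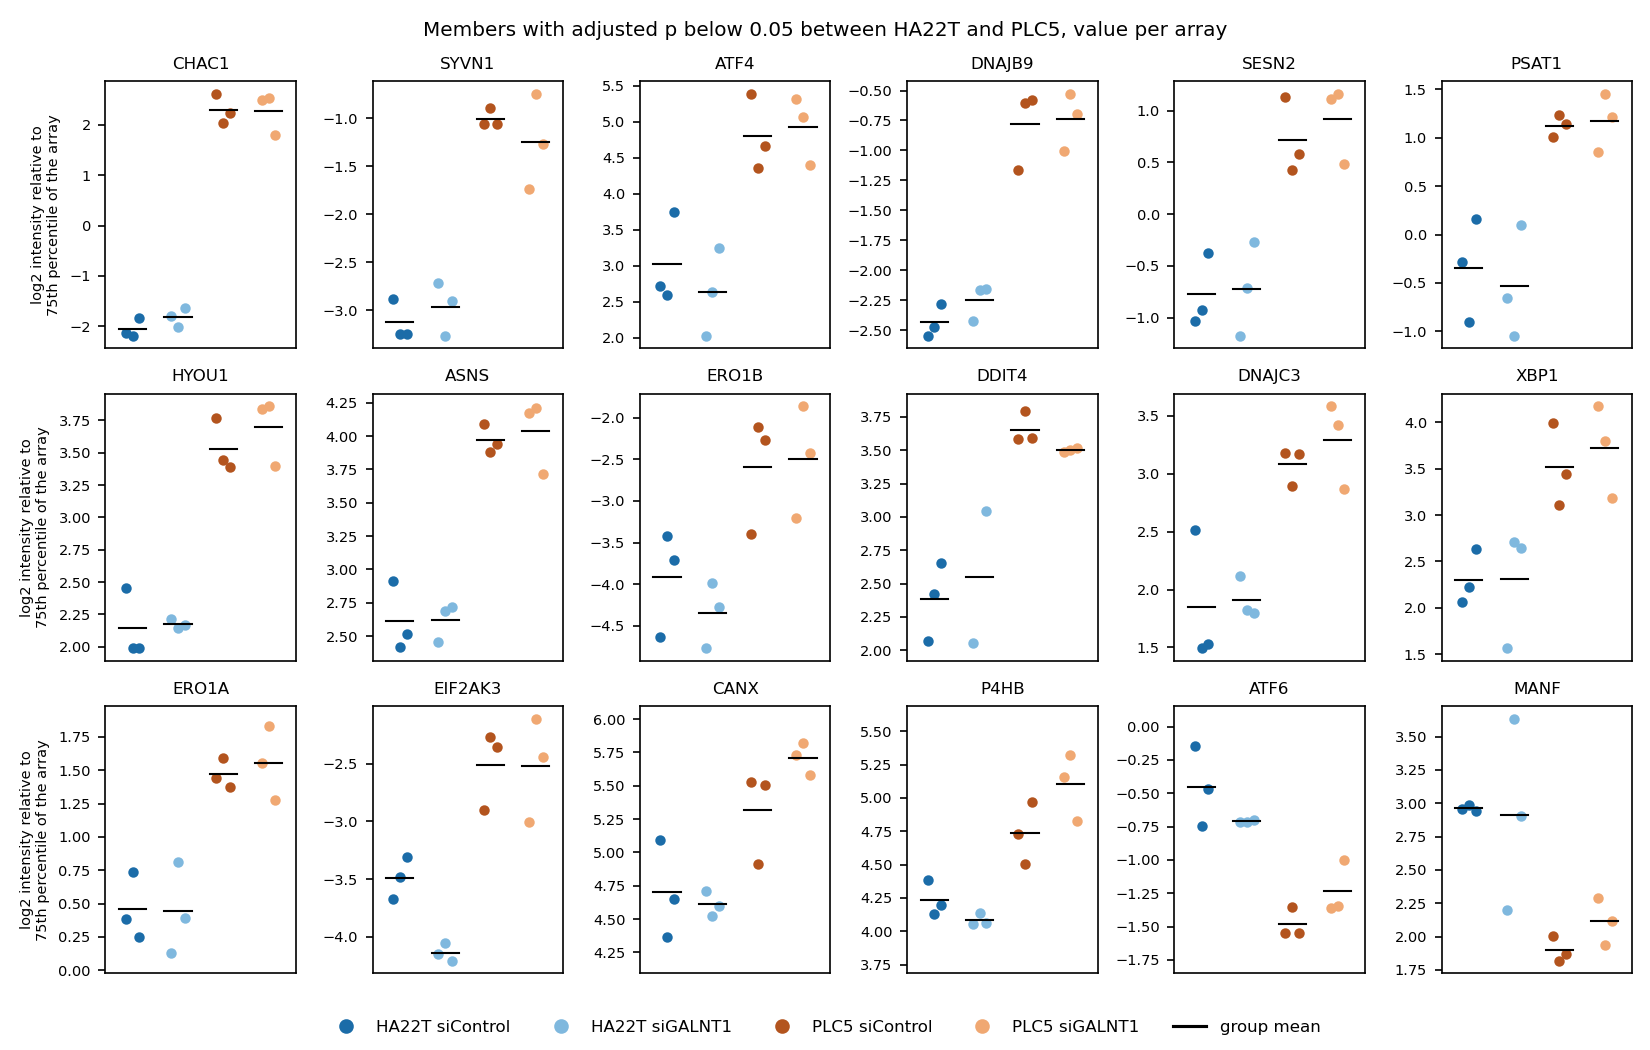
Level on each array (log2 signal relative to the 75th percentile of the array, y axis, with its own range in each panel) of the 18 genes called between the lines with either siRNA; points are arrays, coloured by group, and black lines are group means. CHAC1 runs from -2.20 to -1.64 on the HA22T arrays and from 1.79 to 2.62 on the PLC5 arrays, ATF6 and MANF are the genes that lie higher in HA22T, and DDIT4 has 2 HA22T siGALNT1 points.

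Of the ERAD factors, SYVN1 alone was called. SYVN1 (HRD1) is the ubiquitin ligase of the main ERAD complex, and read -2.88, -3.25 and -3.24 with siControl and -2.72, -3.27 and -2.90 with siGALNT1 in HA22T, and -1.06, -0.90 and -1.06 with siControl and -1.73, -0.74 and -1.27 with siGALNT1 in PLC5. Every HA22T array lay below every PLC5 array, by 4.34-fold with siControl (-2.12 ± 0.29, adjusted p = 0.000265) and 3.28-fold with siGALNT1 (-1.71 ± 0.29, 0.00124). On knockdown in PLC5 SYVN1 differed by -0.24, from -0.67 within slide 1 to -0.03 within slide 2. Its partner SEL1L read 1.06, 1.06 and 0.75 with siControl and 0.87, 1.18 and 1.03 with siGALNT1 in HA22T, and 0.66, 1.16 and 1.05 with siControl and 0.97, 1.51 and 1.15 with siGALNT1 in PLC5. The groups of SEL1L overlapped, and the line differences were 0.00 with siControl (95% interval -0.54 to 0.55) and -0.18 with siGALNT1 (-0.73 to 0.36). The other SEL1L probes differed by -1.06 and -0.25 with siControl and by -0.73 and -0.72 with siGALNT1, none called, and the first of them was well above background on none of the HA22T siControl arrays and was not tested with siControl.

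HERPUD1, a membrane scaffold of the same complex, read 0.27, 0.95 and 0.91 with siControl and -0.58, 2.14 and 0.65 with siGALNT1 in HA22T, and 2.06, 1.99 and 1.95 with siControl and 2.45, 2.26 and 2.07 with siGALNT1 in PLC5. HA22T siGALNT1 replicate 2 was the only HA22T array within the range of PLC5. The differences of -1.29 ± 0.53 and -1.53 ± 0.53 did not pass the test (adjusted p = 0.111 and 0.0588). Without that array the line difference with siGALNT1 was -2.23 (adjusted p = 0.00232), and HERPUD1 was also called with siControl (0.0208), as it was without HA22T siGALNT1 replicate 1 (0.0284). HERPUD1 was also called with siGALNT1 in 4 other settings (adjusted p 0.0218 to 0.0440) and with siControl in 2 (0.0180 and 0.0341). In PLC5 the siGALNT1 arrays of HERPUD1 all lay above its siControl arrays, by 0.27 on average (adjusted p = 1.00).

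The derlins, which form the retrotranslocation channel with HRD1, and EDEM1, which trims mannose from misfolded glycoproteins, were not called. DERL3 read 7.73, 7.03 and 7.24 with siControl and 6.92, 7.04 and 7.14 with siGALNT1 in HA22T, and 7.21, 6.47 and 6.60 with siControl and 7.35, 6.88 and 6.36 with siGALNT1 in PLC5. Its groups overlapped, and it differed by 0.57 with siControl (adjusted p = 0.250) and by -0.29 on knockdown in HA22T. The other DERL3 probe went the opposite way, 0.89 on knockdown in HA22T, -0.21 on knockdown in PLC5 and -0.35 between the lines with siControl. DERL1 differed by 0.43 and 0.50 between the lines, DERL2 by -0.15 and -0.38, and EDEM1 by 0.04 and -0.09.

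Of the sensors, ATF6 was higher in HA22T with siControl and PERK lower with both siRNAs. ATF6 read -0.14, -0.75 and -0.46 with siControl and -0.72, -0.71 and -0.70 with siGALNT1 in HA22T, and -1.55, -1.35 and -1.55 with siControl and -1.36, -1.35 and -0.998 with siGALNT1 in PLC5. All HA22T arrays lay above all PLC5 arrays, with a difference of 1.03 ± 0.23 with siControl (2.04-fold, adjusted p = 0.00799) and 0.53 ± 0.23 with siGALNT1 (0.131). After quantile normalization the latter was 0.78 and was called (0.0145). On knockdown ATF6 differed by -0.26 in HA22T and 0.25 in PLC5, and the difference between these, -0.50, had an adjusted p of 0.988. After normexp background correction the HA22T value was 0.04.

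EIF2AK3 encodes PERK, the eIF2alpha kinase of the ER. It read -3.67, -3.48 and -3.31 with siControl and -4.15, -4.05 and -4.21 with siGALNT1 in HA22T, and -2.90, -2.27 and -2.35 with siControl and -3.01, -2.11 and -2.44 with siGALNT1 in PLC5. The 3 groups of arrays did not mix: HA22T siGALNT1 lay lowest, HA22T siControl next, and the PLC5 arrays highest. The line difference was -0.98 ± 0.28 with siControl (adjusted p = 0.0287) and -1.62 ± 0.28 with siGALNT1 (0.00167). With siControl the call was lost without any 1 of the HA22T siControl arrays or PLC5 siControl replicate 2 or 3 (adjusted p 0.0506 to 0.108), and with the slide as a block (-0.54, 0.204) or normexp (-0.68, 0.0799). Under the methods' t-test it was lost as well (adjusted p = 0.0634). On knockdown in HA22T EIF2AK3 was 1.57-fold lower (-0.65 ± 0.28, adjusted p = 1.00) without passing the test, with the lowest p of the 42 genes, and 4.11% of all probes had siGALNT1 arrays that all lay below the siControl arrays. It was well above background on 2 of the 3 HA22T siGALNT1 arrays. In PLC5 it differed by -0.01, and the difference between the lines, -0.64, had an adjusted p of 0.988.

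ERN1, which encodes IRE1, read 0.72, 0.81 and 0.48 with siControl and 1.40, 0.70 and 0.77 with siGALNT1 in HA22T, and 0.37, 0.84 and 0.33 with siControl and 0.20, 0.51 and 0.82 with siGALNT1 in PLC5. HA22T siGALNT1 replicate 1 was the highest and the groups overlapped. The line differences of 0.15 (95% interval -0.47 to 0.77) and 0.45 (-0.17 to 1.07) were not called, and knockdown differed by 0.29 in HA22T and -0.01 in PLC5. XBP1, the transcription factor made from the mRNA that IRE1 splices, read 2.06, 2.22 and 2.63 with siControl and 1.56, 2.71 and 2.64 with siGALNT1 in HA22T, and 3.99, 3.11 and 3.44 with siControl and 4.18, 3.80 and 3.19 with siGALNT1 in PLC5. Every HA22T array lay below every PLC5 array of the same siRNA. XBP1 was 2.32-fold lower with siControl (-1.21 ± 0.39, adjusted p = 0.0446) and 2.66-fold lower with siGALNT1 (-1.41 ± 0.39, 0.0219), and the differences were -1.69 and -1.87 within slide 1. It was among the least stable calls: with siControl it was lost without any 1 of the 6 siControl arrays, HA22T siGALNT1 replicate 3 or PLC5 siGALNT1 replicate 2 (adjusted p 0.0514 to 0.139), and with siGALNT1 without HA22T siGALNT1 replicate 1 or PLC5 siGALNT1 replicate 1 or 2 (0.0677 to 0.0810). The siControl call was also lost with the replicate number as a block (0.0698), after median scaling (0.0948), in the deposited table (0.0587), with no filter on dim probes (0.0544) and under the methods' t-test after adjustment (0.0779), and the siGALNT1 call with the 2 groups alone (0.0745) and under that test (0.151).

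ATF4, the transcription factor downstream of the eIF2alpha kinases, read 2.72, 2.60 and 3.74 with siControl and 2.03, 2.63 and 3.25 with siGALNT1 in HA22T, and 5.39, 4.36 and 4.66 with siControl and 5.31, 5.07 and 4.40 with siGALNT1 in PLC5. HA22T lay below PLC5 on every array, with HA22T siControl replicate 3 the nearest. ATF4 was 3.45-fold lower with siControl (-1.78 ± 0.43, adjusted p = 0.0119) and 4.89-fold lower with siGALNT1 (-2.29 ± 0.43, 0.00279). The difference was -2.37 and -2.68 within slide 1. Under the methods' t-test the ATF4 calls were lost (adjusted p = 0.0855 and 0.0567). DDIT3 (CHOP), an ATF4 target that promotes cell death under lasting stress, was not called in either comparison of the lines. DDIT3 read 1.14, 1.93 and 1.51 with siControl and 0.89, 2.89 and 1.76 with siGALNT1 in HA22T, and 1.50, 1.83 and 1.52 with siControl and 1.79, 2.49 and 1.44 with siGALNT1 in PLC5. Its groups overlapped, HA22T siGALNT1 replicate 2 was the highest array, and the line differences were -0.09 (95% interval -1.10 to 0.93) and -0.06 (-1.07 to 0.95).

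CREB3L2, a membrane-bound factor of the ATF6 kind, read 1.47, 1.85 and 2.17 with siControl and 2.02, 2.26 and 2.17 with siGALNT1 in HA22T, and 2.68, 2.52 and 2.42 with siControl and 2.58, 2.94 and 2.23 with siGALNT1 in PLC5. HA22T siControl lay below PLC5 siControl (-0.71, adjusted p = 0.0845), and the siGALNT1 groups overlapped (-0.43). A dimmer CREB3L2 probe differed by -1.52 with siControl (adjusted p = 0.00130) and by -1.75 with siGALNT1, so the call for this gene turns on the probe. On knockdown in HA22T the dimmer probe differed by -0.22 and the brightest by 0.32.

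The integrated stress response targets held the largest difference of the 42 genes. CHAC1, which degrades glutathione and is a target of ATF4, read -2.13, -2.20 and -1.85 with siControl and -1.79, -2.01 and -1.64 with siGALNT1 in HA22T, and 2.62, 2.04 and 2.25 with siControl and 2.49, 2.54 and 1.79 with siGALNT1 in PLC5. The lines were far apart and the siRNAs within a line overlapped. CHAC1 was 20.6-fold lower in HA22T with siControl (-4.36 ± 0.28, adjusted p = 1.03e-06) and 17.0-fold lower with siGALNT1 (-4.09 ± 0.28, 1.80e-06). The dimmer CHAC1 probe differed by -4.79 and -2.85, and on knockdown in HA22T it differed by 1.83 where the brightest probe differed by 0.25. 

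The enzymes of amino acid synthesis differed less. ASNS (asparagine synthetase), the other gene with CARE as its only element, read 2.91, 2.42 and 2.51 with siControl and 2.46, 2.69 and 2.72 with siGALNT1 in HA22T, and 4.09, 3.88 and 3.94 with siControl and 4.18, 4.21 and 3.71 with siGALNT1 in PLC5. No HA22T array reached the PLC5 arrays, and ASNS was 2.56-fold lower with siControl (-1.36 ± 0.24, adjusted p = 0.00177) and 2.66-fold lower with siGALNT1 (-1.41 ± 0.24, 0.00142). PSAT1, a serine synthesis enzyme, read -0.29, -0.91 and 0.16 with siControl and -0.65, -1.05 and 0.10 with siGALNT1 in HA22T, and 1.01, 1.23 and 1.14 with siControl and 0.86, 1.46 and 1.22 with siGALNT1 in PLC5. It was lower on every HA22T array (-1.47 ± 0.35, adjusted p = 0.0109 with siControl, and -1.71 ± 0.35, 0.00467 with siGALNT1). With the slide as a block the siControl call was lost (-1.25, 0.0725). Under the methods' t-test both calls were lost (adjusted p = 0.0550 and 0.0714). PHGDH, which acts upstream of PSAT1 in the same pathway, spread from 0.64 to 2.43 on the HA22T siControl arrays and was not called (-0.70 ± 0.49, adjusted p = 0.365).

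SESN2 and DDIT4, stress-induced inhibitors of mTORC1, were lower in HA22T, DDIT4 with siControl only in the setting reported here. SESN2 read -1.03, -0.92 and -0.37 with siControl and -1.18, -0.71 and -0.27 with siGALNT1 in HA22T, and 1.13, 0.43 and 0.58 with siControl and 1.12, 1.16 and 0.48 with siGALNT1 in PLC5. Its lines did not overlap, and it was 2.80-fold lower with siControl (-1.49 ± 0.33, adjusted p = 0.00730) and 3.12-fold lower with siGALNT1 (-1.64 ± 0.33, 0.00415). DDIT4 has no value on HA22T siGALNT1 replicate 2, whose spot was non-uniform. It read 2.07, 2.42 and 2.66 with siControl and 2.05 and 3.04 with siGALNT1 in HA22T, and 3.58, 3.79 and 3.59 with siControl and 3.49, 3.50 and 3.52 with siGALNT1 in PLC5. Every HA22T value lay below every PLC5 value, with -1.27 ± 0.29 with siControl (adjusted p = 0.0105) and -0.95 ± 0.33 with siGALNT1 (0.0622, from 2 HA22T arrays). Without HA22T siGALNT1 replicate 3, which leaves 1 HA22T siGALNT1 array assumed to vary like the other groups, the latter was -1.45 (0.0197). DDIT4 was called lower with siGALNT1 in 9 of 26 other settings in all, among them non-uniform spots kept, which restores the missing array (-0.88, 0.0168), the replicate number as a block (-0.92, 0.0460), the deposited table (-0.80, 0.0391), normexp (0.0382) and quantile normalization (0.0277). On knockdown in PLC5 the siGALNT1 arrays of DDIT4 all lay below its siControl arrays (difference -0.15, adjusted p = 1.00), as did 1.66% of all probes.

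TRIB3, an inhibitor of ATF4 and CHOP, differed by -0.70 (adjusted p = 0.183) and -0.84 (0.101), and VLDLR, a lipoprotein receptor, by -0.15 and -0.29, none called. The other VLDLR probe gave 0.12 with siControl. PPP1R15A (GADD34), which directs the phosphatase of eIF2alpha, was the only target above 0 (0.58, adjusted p = 0.370). Of the transport factors, the translocon subunit SEC61B read 4.21, 3.27 and 3.65 with siControl and 3.36, 3.29 and 3.44 with siGALNT1 in HA22T, and 4.27, 3.48 and 3.51 with siControl and 4.31, 3.87 and 3.41 with siGALNT1 in PLC5. Its groups overlapped and the line differences were -0.05 and -0.50. The coat protein SEC24D differed by -0.21 and -0.35.

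The calls were set against the elements shown above. Of the 38 genes with a sequence, 13 were called lower and 2 higher in HA22T with siControl. Of the 11 with ERSE or ERSE-II, HYOU1 and XBP1 were called lower and 9 were not called, among them HSPA5, HSP90B1 and CALR. With siGALNT1, 15 of the 38 were called, all lower, and of the 11 with ERSE or ERSE-II 4 were (HYOU1, XBP1, CANX and ERO1B). Of the 3 with CARE, CHAC1 and ASNS were lower with both siRNAs and HERPUD1 was called with neither. These are counts of few genes, and no test was run on them.

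Further genes of the pathway were read from 5 lists of 107 genes, none of them among the 42, of which 106 had a value. On knockdown 0 of the 104 tested in HA22T and 0 of the 106 tested in PLC5 were called, where 0.00275% and 0% of probes were. At an unadjusted p below 0.05 it was also 0 in both lines. Between the lines 33 of 105 were called with siControl, 26 lower and 7 higher, against 26.6% of named genes (12.4% lower and 14.2% higher), and 38 of 105 with siGALNT1, 32 lower and 6 higher, against 26.6% (15.0% lower and 11.6% higher).

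Other targets of ATF4 were called in 9 of 22 with siControl and in 9 of 22 with siGALNT1, all lower in HA22T, where 12.4% and 15.0% of named genes were called lower. MTHFD2, a mitochondrial folate enzyme, was not well above background on any HA22T array. It read -0.50, -0.23 and -0.10 with siControl and -0.31, 0.30 and 0.08 with siGALNT1 in PLC5. At the background of the HA22T arrays it was at least 38.7-fold lower with siControl and at least 29.8-fold lower with siGALNT1. These bounds set the PLC5 mean against the dimmest probe well above background on each HA22T array, and were not tested. The fitted differences, which use the HA22T readings below background, were -7.33 (limma, adjusted p = 2.88e-06) and -6.96 (4.82e-06). PCK2, the mitochondrial PEP carboxykinase, read -1.22, -1.28 and -0.33 with siControl and -1.25, -0.84 and -0.55 with siGALNT1 in HA22T, and 2.93, 2.57 and 2.56 with siControl and 2.90, 2.67 and 2.51 with siGALNT1 in PLC5. The lines did not overlap (-3.63 ± 0.31, adjusted p = 8.32e-06; -3.57 ± 0.31, 1.05e-05). The stress cytokine GDF15 read 2.84, 4.57 and 4.43 with siControl and 4.75, 4.71 and 4.24 with siGALNT1 in HA22T, and 7.53, 7.05 and 7.27 with siControl and 7.69, 7.57 and 7.08 with siGALNT1 in PLC5. HA22T siControl replicate 1 was the lowest array, and GDF15 differed by -3.34 and -2.88. STC2, a secreted glycoprotein, differed by -2.46 and -2.83.

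**Figure D5:**
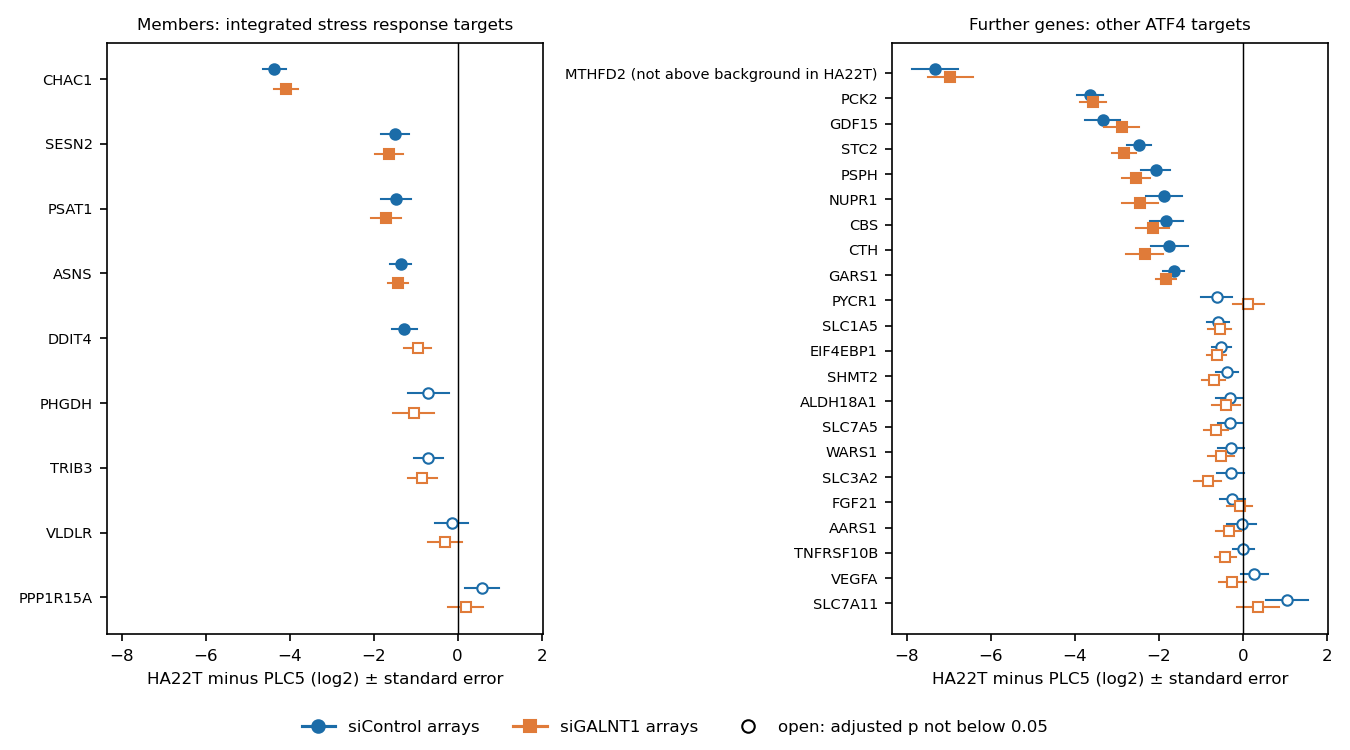
Difference between HA22T and PLC5 (log2, x axis) with siControl (circles) and siGALNT1 (squares) for the 9 integrated stress response targets among the 42 genes (left) and 22 other ATF4 targets (right); bars are standard errors and open symbols had an adjusted p of 0.05 or more. CHAC1 lies at -4.36 and -4.09, PCK2 at -3.63 and -3.57, and MTHFD2 is drawn at its fitted value although it was not above background in HA22T.

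In the other lists calls went both ways, and their counts stand against 26.6% of named genes called with either siRNA. Other ER folding factors were called in 9 of 19 with siControl, 7 lower and 2 higher, and in 11 of 19 with siGALNT1, 9 lower and 2 higher. SIL1, another exchange factor of BiP, was lower (-2.12 and -2.20), as was the reductase DNAJC10 (-1.38 and -1.64), and ERP44, which retains ERO1 in the ER, was higher (2.05 and 1.61). Other ERAD factors were called in 4 of 19 with siControl (1 higher) and 5 of 19 with siGALNT1 (1 higher), no more than the share of named genes. The ubiquitin ligase RNF139 was higher (1.35) and SELENOS (-1.40) and ERLEC1 (-1.09) were lower with siControl.

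Other sensors and factors were called in 7 of 19 with siControl, 3 lower and 4 higher, and in 6 of 19 with siGALNT1, 4 lower and 2 higher. CREB3L1 was higher (2.17 and 1.79, the latter without HA22T siGALNT1 replicate 1, where it has no value), as was EIF2S1, which encodes eIF2alpha itself (1.57 and 1.20). MBTPS2, a protease that cleaves ATF6, was lower (-1.43 and -1.77), as was CEBPG, a dimer partner of ATF4 (-1.94 and -2.09). Translocon and ER to Golgi transport genes were called in 4 of 26 with siControl, all lower (SEC63, SRPRA, SEC11C and SEC23A), and in 7 of 26 with siGALNT1, 6 lower and 1 higher.

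The spread within a group differed between the arrays. On the HA22T siGALNT1 arrays many chaperones and folding enzymes had their extremes on the same arrays: 13 of 17 were lowest on replicate 1, where 38.9% of 11849 named genes were, and 10 of 17 were highest on replicate 2, where 27.5% were. Their median deviation from the group mean was -0.33 on replicate 1 and 0.30 on replicate 2, against 0.01 and -0.01 for named genes. HERPUD1 had the largest standard deviation (SD) in this group, 1.36, followed by DDIT3 with 1.00. Replicate 2 is the array with the fewest spots well above background (36679) and the most non-uniform spots (3633), and the part of these in the spread was not tested. In PLC5, 13 of 17 chaperones were lowest on siGALNT1 replicate 3, where 53.8% of named genes were. In the HA22T siControl group the largest SD was that of PHGDH, 0.90.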

How the data were processed

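RNA of 4 groups of 3 samples was hybridised by the authors to 12 one-colour Agilent arrays, which were scanned and read with Feature Extraction 10.5.1.1 (submitters' processing notes). The deposited intensity values per spot are the processed signal, background-subtracted by that software, and the median signals of the spot and its surroundings, with flags. The deposited log2 table holds the authors' values per probe. Its columns follow the values computed here at an r above 0.99 per array, its scale and centring are unstated, and it was used as an alternative only.

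Values are the log2 processed signal minus the 75th percentile of its array. Control spots and spots flagged as non-uniform were dropped, and replicate spots averaged (50599 probes). Through RefSeq accessions, 28174 probes were named (GRCh38.p14 table). The array number limits the precision. A comparison counted the probes that 3 or more of its 6 arrays flagged as well above background. Using limma 3.58.1 (R 4.3.3), lmFit and eBayes were run over the 4 groups (prior over all probes, no covariates, two-sided), with Benjamini-Hochberg adjustment within counted probes and a threshold of 0.05. Exact permutation of 3 against 3 arrays cannot go below 0.1 and was not used.

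The member genes and the further lists were chosen with earlier results of these data known. Values per array are given for HSPA5, HSP90B1, XBP1, ATF4, ATF6, ERN1, EIF2AK3 and DDIT3, for genes called in a line comparison and for the 8 with the lowest p in each knockdown comparison. Up to 4 further genes per list with the lowest adjusted p are named, apart from a result that is not reported here. Any other named gene was picked with its values known. Other probes of a gene are given where they differ in sign or by more than 1. The dimmer probes of SEL1L and HSP90B1 differed in sign on knockdown in HA22T or between the lines (SEL1L 1.09 and -0.17, HSP90B1 0.04, in HA22T). The SEL1L probe at 1.09 was too dim to be tested on knockdown in HA22T, and the others were not called. Alternatives were normexp with an offset of 50, on median signals since the files hold no means, quantile and median scaling, the deposited table, other filters, a block of slide or of replicate number, the 2 groups alone, other priors, the methods' t-test, the mean over probes, and each array left out. The replicate numbers were checked as pairs. Deviations of same-numbered arrays from their group means correlated at 0.55, 0.40 and 0.43 in HA22T and at 0.71, -0.02 and 0.16 in PLC5. Differently numbered arrays correlated at up to 0.22 in HA22T and, for siControl replicate 2 with siGALNT1 replicate 3, at 0.53 in PLC5. The 0.71 is that of replicate 1, the only PLC5 replicate on slide 1, so number and slide cannot be told apart there. Numbers therefore pair the HA22T arrays by the data, and the labels do not say what they share.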

Additional observations from a re-analysis of the deposited data

How the results depend on the processing

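The count of called genes on knockdown, and for the difference of the siRNA effect between the lines, was 0 of 42 in every alternative and with every array left out (0 to 0). At most 3 probes of the whole array were called in any of them, so these counts add little. Between the lines with siControl the 15 calls became 12 to 19 in the other settings and 10 to 16 with 1 array left out. With siGALNT1 the 15 calls became 8 under the methods' t-test, which lost ATF4, ERO1A, ERO1B, PSAT1, SESN2, SYVN1 and XBP1, up to 19 in the other settings, and 13 to 17 with 1 array left out. The cause was not tested. Over all probes, the 8407 calls with siGALNT1 became 3967 under that test, 5288 with the 2 groups alone and 5233 with all 6 arrays above background. On knockdown in HA22T the 1 called probe became 3 after normexp, with the trend or with the prior from counted probes, 2 with the mean over probes and 2 without PLC5 siGALNT1 replicate 1, and in PLC5 normexp gave 2.

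For GALNT1 in HA22T the difference was -4.26 after normexp (adjusted p = 0.000167), -5.10 with the trend (0.00172), -5.10 with the prior from counted probes (0.0203) and -4.93 as the mean over probes (0.0106), and in PLC5 it was -3.38 after normexp (0.00900). All these passed the threshold that the main value missed. With 1 array left out GALNT1 lay between -5.59 and -4.39 in HA22T and between -4.31 and -3.31 in PLC5. Filtering on all 6 arrays gave no HA22T value for that probe.

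Reversed values were small: on knockdown in HA22T, ATF6 0.0394 and DERL3 0.11 after normexp, and DERL3 0.30 as the mean over probes. In PLC5, with 1 array left out, SYVN1 ran from -0.50 to 0.00032 (without PLC5 siGALNT1 replicate 1), and HSPA5 ran from -0.000885 (without PLC5 siGALNT1 replicate 2) to 0.60. With a replicate block, which pairs the HA22T arrays, the calls were 0 in each knockdown comparison, 16 between the lines with siControl (XBP1 lost, DNAJB11 and ERO1B gained) and 16 with siGALNT1 (DDIT4 gained). Median scaling and quantile normalization moved the median difference of all probes with siControl from 0.04 to 0.15 and 0.12, and quantile normalization that with siGALNT1 from 0.10 to 0.22. Signal over background limits EIF2AK3 and ERO1B in HA22T, which were not above background on all siGALNT1 arrays.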

Other observations

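Interferon response genes were read because transfected RNA can induce them. Both siControl and siGALNT1 cells were transfected with siRNA, so a response common to them cannot be seen here. Of 10 such genes, 9 were tested in each line. On knockdown 0 of 9 were called, where 0.00275% of probes in HA22T and 0% in PLC5 were. Their median difference was -0.49 in HA22T, where 8 of 9 lay below 0 and the median of all probes was -0.06, and 0.04 in PLC5, where 4 of 9 did and the median of all probes was 0.01.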
